A study of Mus musculus with 4 samples.

Results

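The collagen genes were read across the cell types of mouse kidney cortex in a single-nucleus RNA sequencing study. They were all entries of the deposited expression table whose symbol is Col, a number, the letter a and a number, which gave 42 of 21456 genes. The choice used names only and no measured value. Nuclei came from kidney cortex of C57BL/6J mice, and 4 genotypes were profiled with 1 library each, WT, Sco2KO/KI, db/db and their combination Sco2KO/KI;db/db, called the double mutant. Sco2 encodes a copper chaperone of mitochondria that serves the assembly of cytochrome c oxidase, and KO/KI names a knockout and a knock-in allele. Mice of the db/db genotype have no signalling leptin receptor (Lepr) in any cell and become obese and diabetic. Age, sex and how many animals a library holds were not given in the sources used here.

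Each value averages the nuclei of a cluster within a library, in UMIs per 10000 UMIs of a nucleus, and is called the normalised value below. Values of different genes are not per length, because reads of unspliced transcripts were included and long genes can collect more of them. The libraries held 5157, 1178, 4575 and 5279 nuclei for WT, Sco2KO/KI, db/db and, last, the double mutant, which is the order of every run of 4 values below. UMI totals of nuclei could be read as distinct values only, in many clusters for part of the nuclei. Their median, called the median UMI total below, differed by cluster. It ran from 987 to 6628 in WT, 1507 to 10624 in Sco2KO/KI, 852 to 6089 in db/db and 1034 to 4491 for the double mutant. No genotype was replicated, so genotype differences carry no test and describe these 4 libraries.

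The nuclei fell into 21 clusters, which were named from marker genes that include no collagen gene. Clusters 0, 1, 2, 3 and 7 were proximal tubule-like. Podocyte-like cluster 15 carried 7 of 7 podocyte markers, endothelium-like cluster 9 carried 8 of 8 endothelial and 3 of 7 fibroblast markers, and parietal epithelium-like cluster 17 carried 5 of 6 parietal markers. Principal cell-like cluster 13 carried 7 of 7 markers, urothelium-like cluster 18 carried 6 of 6 and leukocyte-like cluster 19 carried 9 of 9. Cluster 8 carried markers of both the connecting tubule (5 of 5) and the principal cell (7 of 7) and was not named. Cluster 6 stayed unnamed, with 8 of 10 pericyte, mesangial and smooth muscle markers, 8 of 8 endothelial markers and 5 of 7 fibroblast markers. Clusters 6, 10 and 14 also held proximal tubule transcripts: Slc34a1, the phosphate transporter of that segment, was there at 45.7% to 83.9% of its mean in the proximal tubule-like clusters. Their median UMI totals reached 6205, 9070 and 10624.

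Collagens are triple-helical proteins of the extracellular matrix, built from chains that wind together in fixed combinations inside the cell. Fibrillar collagens give tissues tensile strength, whereas type IV collagen forms the sheet-like network of basement membranes. In the kidney, the chains encoded by Col4a1 and Col4a2 form a heterotrimer found in most basement membranes. The chains of Col4a3, Col4a4 and Col4a5 form the network of the mature glomerular basement membrane, which is made by podocytes and is defective in Alport syndrome. The chains of Col4a5 and Col4a6 form a further heterotrimer known from the basement membrane of Bowman's capsule.

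The type IV chains are encoded by pairs of genes that lie head to head, and promoter windows are shown because the members of a pair are read together below. Each window runs from 250 bases before to 50 bases after a transcript start in RefSeq (GRCm38.p6). Col4a1 (chromosome 8, 11198423 to 11312826, minus strand, mm10) and Col4a2 (chromosome 8, 11312805 to 11449287, plus strand) overlap by 22 bases in the GENCODE annotation. Their windows, chr8:11312777-11313076 on the minus strand and chr8:11312555-11312854 on the plus strand, share 78 bases, given in capitals.
Col4a1: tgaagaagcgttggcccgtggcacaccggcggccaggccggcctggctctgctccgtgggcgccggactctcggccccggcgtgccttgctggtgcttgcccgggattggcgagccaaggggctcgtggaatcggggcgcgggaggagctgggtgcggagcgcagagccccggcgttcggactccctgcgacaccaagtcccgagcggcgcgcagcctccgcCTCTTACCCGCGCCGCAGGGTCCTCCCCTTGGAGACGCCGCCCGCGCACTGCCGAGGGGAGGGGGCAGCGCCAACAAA
Col4a2: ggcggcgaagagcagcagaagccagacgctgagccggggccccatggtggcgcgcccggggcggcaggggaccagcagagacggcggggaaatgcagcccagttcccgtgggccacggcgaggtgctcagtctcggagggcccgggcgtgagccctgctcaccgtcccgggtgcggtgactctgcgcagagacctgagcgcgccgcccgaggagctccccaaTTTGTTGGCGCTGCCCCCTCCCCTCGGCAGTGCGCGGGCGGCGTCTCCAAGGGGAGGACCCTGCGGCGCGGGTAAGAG
Col4a4 (chromosome 1, 82448423 to 82586849, minus strand) and Col4a3 (chromosome 1, 82586921 to 82722059, plus strand) start 71 bases apart, and those 71 bases are in capitals in the Col4a4 window, chr1:82586800-82587099 on the minus strand.
Col4a4: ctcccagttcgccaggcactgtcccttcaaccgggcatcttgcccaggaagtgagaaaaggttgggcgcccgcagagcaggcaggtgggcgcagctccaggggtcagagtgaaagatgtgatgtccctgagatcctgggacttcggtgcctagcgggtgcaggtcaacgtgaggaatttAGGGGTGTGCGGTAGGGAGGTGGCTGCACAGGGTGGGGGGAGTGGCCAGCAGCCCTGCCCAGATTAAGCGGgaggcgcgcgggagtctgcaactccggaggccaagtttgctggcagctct
Col4a6 and Col4a5 lie on chromosome X with 1308 bases between their starts.

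Across all 34 members with a window, 37 windows had a median GC content of 59.7%, against 52.7% over 32851 windows of the same length. The motif GGGCGG, searched on both strands, was in 22 of 37 collagen windows (59.5%) and in 35.7% of all windows. CCAAT was in 35.1% and 37.4%, TATAAA in 13.5% and 13.6%, and GTTAAT in 5.41% and 7.10%. CAAAGTCCA was in 0 of 37 windows and in 0.475% of all. GGGCGG matches can overlap GC-rich sequence in general, and a match is a description of the letters only.

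Of the 42 collagen genes, 14 reached a normalised value of 1 in the mean of at least 1 cluster, 10 more reached 0.5, 11 reached 0.1 but not 0.5, and 7 stayed below 0.1 in every cluster. The last were Col10a1, Col6a5, Col9a3, Col9a1, Col11a2, Col28a1 and Col8a2, with highest cluster means of 0.00126 to 0.0695. Cluster means cover libraries with at least 20 nuclei in the cluster. Col4a3, Col4a4 and Col4a5 were at or above 0.5 in every cluster mean. In the endothelium-like cluster Col4a3 stood at 42.9%, 20.1%, 24.5% and 18.3% of its proximal tubule-like mean. For Slc34a1 the same shares were 26.5%, 28.0%, 16.7% and 20.0%. The part of proximal tubule transcripts in the low cluster means was not tested. Summed over all members, the podocyte-like cluster stood highest, at 52.1, 62.8, 70.3 and 72.2, of which type IV genes made up 90.9% of the mean of 64.9. The Sco2KO/KI value there rests on 11 nuclei and is not in that mean. The next clusters were parietal epithelium-like at a mean of 35.8 and principal cell-like at 34.9, and leukocyte-like was the lowest at 14.5. Without Col4a3 the podocyte-like mean was 32.9, which cannot be ranked against the sums of the other clusters, since those include Col4a3.

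**Figure D1:**
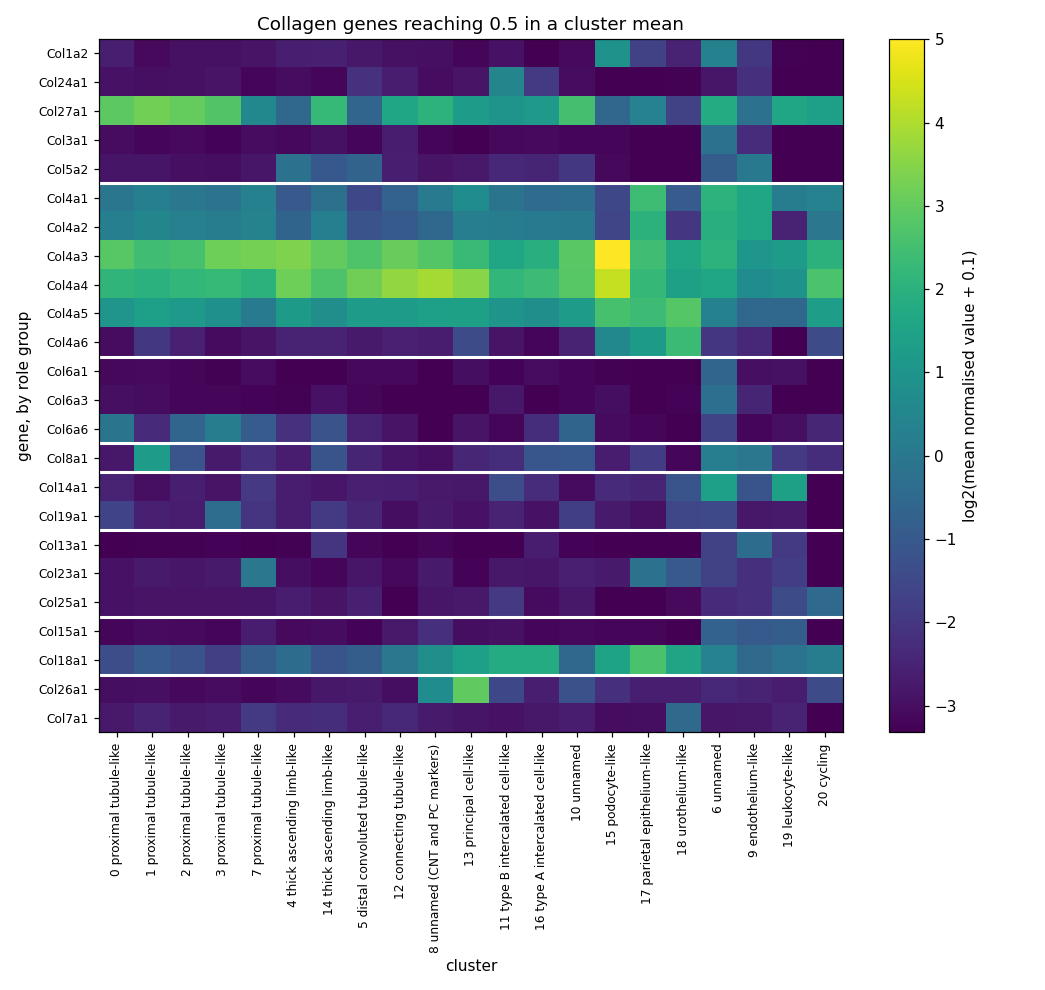
Collagen genes whose cluster mean reached 0.5 (rows, separated by white lines into role groups) in 21 clusters (columns). Colour is log2 of the mean normalised value over libraries with at least 20 nuclei plus 0.1; the brightest cell is Col4a3 in the podocyte-like cluster, with a mean of 32.0, and the row of Col27a1 is brightest in the proximal tubule-like clusters 0 to 3.

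Among the type IV genes, Col4a3 was highest in the podocyte-like cluster, with normalised values of 26.0, 30.6, 34.4 and 35.5. Its next cluster mean was 10.5, in thick ascending limb-like cluster 4, where the values were 9.63, 7.33, 10.7 and 14.3. No podocyte-like value overlapped any of these. About 535 UMIs stood behind the WT podocyte-like value and 921 behind that of db/db. Col4a4 was also highest in the podocyte-like cluster, at 15.2, 19.9, 21.4 and 21, but the distal tubule and collecting duct clusters came close. Cluster 8 had Col4a4 at 13.7, 17.7, 13.2 and 14, and its range overlaps that of the podocyte-like cluster. Connecting tubule-like cluster 12 followed with a mean of 12.6 and the principal cell-like cluster with 11.3.

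The ratio of Col4a3 to Col4a4 therefore differed along the nephron. On the log2 scale of cluster means it was 1.24 in proximal tubule-like cluster 7 and -1.19 in the principal cell-like cluster. Over the 72 columns with at least 20 nuclei the log2 values of the pair had a Pearson r of 0.66 and a Spearman rho of 0.59. These columns come from 4 libraries and share their depth, so the coefficients are descriptions only.

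Col4a5 (chromosome X, 141475385 to 141689234, plus strand) was highest in the urothelium-like cluster, where WT had 6.18 and db/db 7.64. The other libraries had under 20 nuclei or no column there. The podocyte-like cluster followed at 4.93, 6.52, 7.21 and 5.64 and overlaps it. The parietal epithelium-like cluster came next, where WT had 3.61 and db/db 6.61, so the 3 clusters had the same order in both libraries that held all of them, while their ranges over libraries overlap. Col4a6 (chromosome X, 141165403 to 141474076, minus strand) was nearly restricted to the same 3 clusters. Its cluster means were 5.06 in urothelium-like, 2.22 in parietal epithelium-like and 1.39 in podocyte-like nuclei, and the next highest was 0.282. Over 72 columns Col4a5 and Col4a6 had r = 0.64 and rho = 0.48.

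Col4a1 and Col4a2 showed the reverse arrangement in the glomerulus. By the mean over libraries both were highest in the parietal epithelium-like cluster, where Col4a1 stood at 6.43 (WT) and 4.07 (db/db) and Col4a2 at 2.68 and 5.26. Cluster 6 followed, with Col4a1 at 3.21, 5.45, 3.01 and 4.55 and Col4a2 at 2.55, 4.68, 2.92 and 4.58. The endothelium-like cluster had Col4a1 at 3.04, 3.26, 2.04 and 3.24 and Col4a2 at 3.09, 3.95, 1.77 and 2.82, so in WT alone it lay above the parietal epithelium-like cluster for Col4a2. The podocyte-like cluster was low for both, with cluster means of 0.247 for Col4a1 and 0.234 for Col4a2, from at most about 10 UMIs a library. For Col4a2 the leukocyte-like and urothelium-like clusters were lower still, at 0.0747 and 0.147. Over 72 columns the pair had r = 0.77 and rho = 0.72, whereas Col4a1 and Col4a3 had r = -0.46 and rho = -0.42.

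**Figure D2:**
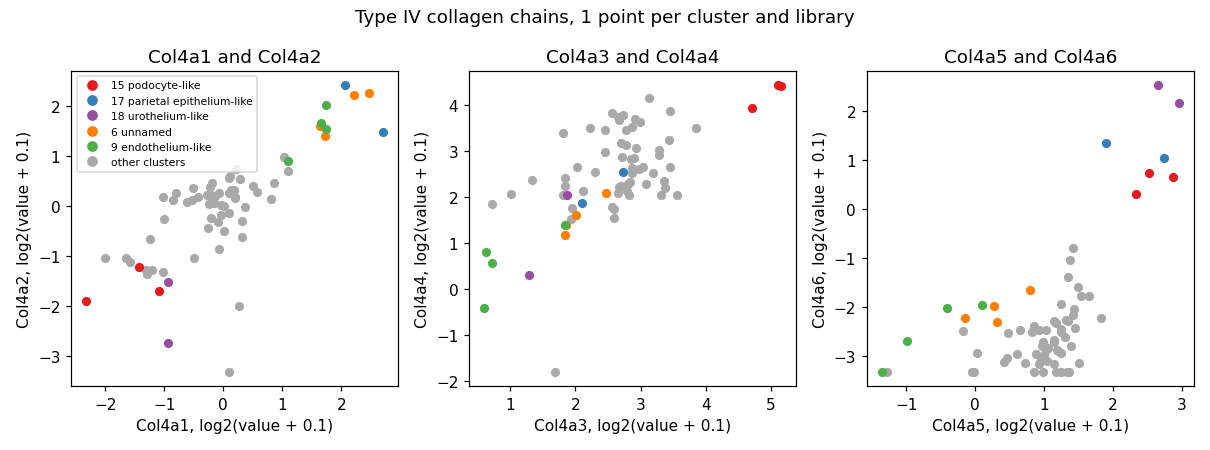
Type IV collagen chains in pairs of neighbouring genes, 1 point per cluster and library with at least 20 nuclei (72 points per panel); both axes are log2 of the normalised value plus 0.1. Podocyte-like points (red) lie at the top right for Col4a3 and Col4a4 and toward the bottom left for Col4a1 and Col4a2, and only urothelium-like, parietal epithelium-like and podocyte-like points lie high for Col4a6.

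The other members with a value of 1 or more were spread over epithelial, stromal and blood-borne clusters. Col18a1, a basement membrane collagen whose cleavage releases endostatin, was highest in the parietal epithelium-like cluster, where WT had 6.05 and db/db 5.87. Types A and B intercalated cell-like clusters followed with means of 3.41 and 3.36. Col26a1 (chromosome 5, 136741759 to 136883209, minus strand) was highest in the principal cell-like cluster in all 4 libraries, at 5.55, 8.97, 9.05 and 7.40. Its next cluster mean was 1.56, in cluster 8. Col24a1, a fibrillar collagen known from bone, was highest in the type B intercalated cell-like cluster, at 0.466 for WT, 1.25 for db/db and 2.10 for the double mutant, and at 4.09 in the 15 nuclei of Sco2KO/KI. Col1a2, a chain of type I collagen, was highest in the podocyte-like cluster, at 1.25, 1.38, 1.41 and 2.87, where its partner Col1a1 had a mean of 0.0338 and the summed value of 7 fibroblast markers was at most 0.409. Col14a1, which binds to the surface of fibrils, had means of 2.55 in the leukocyte-like cluster, where db/db had about 6 UMIs and the double mutant 10, and 2.50 in cluster 6.

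Stromal collagens gathered in cluster 6. It was the highest cluster for 7 of the 35 members that reached 0.1 anywhere, against 2.04% of the 14507 genes that did. The 7 were Col1a1, Col3a1, Col5a1, Col6a1, Col6a2, Col6a3 and Col15a1, with means there of 0.183 to 0.784. The same share was 3 of 35 in the podocyte-like cluster (Col4a3, Col4a4 and Col1a2), against 5.56% of all genes. It was 4 of 35 in the parietal epithelium-like cluster, against 8.31%.

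The genes that modify and fold collagen chains were most often highest in podocyte-like nuclei. Of 16 such genes that reached 0.1, 7 had their highest mean there (Colgalt2, P3h1, Plod2, P4ha2, P3h4, P4hb and P3h2), against the same 5.56% of all genes. Plod2, a lysyl hydroxylase, had podocyte-like values of 3.23, 4.74, 9.65 and 6.93, and its next cluster mean was 2.49. P3h2, a prolyl 3-hydroxylase with type IV collagen among its substrates, had 13.7, 14, 28.5 and 25.9. Only the db/db and double mutant values of P3h2 lay above its next cluster mean, in thick ascending limb-like cluster 4. The WT and Sco2KO/KI values lay below that mean. All Sco2KO/KI values of the podocyte-like cluster rest on 11 nuclei. Loxl2, a crosslinking oxidase of type IV collagen, had 1.19, 2.29, 3.37 and 5.40. All 3 genes, which were chosen after they were seen, were higher in podocyte-like nuclei of db/db and of the double mutant than in WT. The summed podocyte markers of this cluster were 694, 903, 834 and 777. The summed proximal tubule markers there were 37.0, 40.4, 11.9 and 17.7. The part of these sums in the values of the 3 genes was not tested. Among collagen receptors, the integrin subunit Itga1 and the receptor tyrosine kinase Ddr2 were highest in cluster 6, at means of 5.14 and 0.846, and Itga2 was highest in the urothelium-like cluster at 2.44.

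The db/db library differed from WT mainly in 1 collagen gene. A gene in a cluster was compared where both libraries had at least 20 nuclei and the higher value was at least 0.5, and a difference past 2-fold means a ratio of at least 2 after adding 0.1 to both values. Among 153 such collagen pairs, 25 were higher past 2-fold in db/db (16.3%), against 4.71% of all gene pairs, and 10 were lower (6.54%), against 7.79%. Of the 25, 16 belonged to Col27a1. Without Col27a1 and Col6a6, 9 of 135 pairs were higher (6.67%), which lies near the background. The median log2 ratio of the collagen pairs was 0.17, and that of all pairs was 0.00.

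Col27a1 (chromosome 4, 63214004 to 63334991, plus strand), a fibrillar collagen known from cartilage, was the fibrillar member with the highest values, and its window is shown because its level differed past 2-fold in more clusters than that of any other member in db/db against WT. The window is chr4:63215162-63215461 on the plus strand, where RefSeq places a start, and capitals mark the GGGCGG matches on either strand.
Col27a1: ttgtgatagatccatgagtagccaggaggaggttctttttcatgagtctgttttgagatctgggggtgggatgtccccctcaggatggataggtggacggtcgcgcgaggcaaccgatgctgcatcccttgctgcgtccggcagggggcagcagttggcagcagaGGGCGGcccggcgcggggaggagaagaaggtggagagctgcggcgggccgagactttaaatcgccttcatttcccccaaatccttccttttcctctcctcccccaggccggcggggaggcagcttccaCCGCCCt
In proximal tubule-like cluster 0 its normalised values were 1.95, 4.39, 14.7 and 8.82. Cluster 1 had 4.25, 5.92, 13.3 and 13.8, and cluster 2 had 2.27, 4.16, 16.6 and 9.51. In these clusters and in cluster 3 both libraries with the db/db genotype lay above both lean libraries. The log2 ratio of db/db to WT was 2.85, 1.62, 2.82 and 2.32 in clusters 0 to 3, from about 285 to 557 UMIs a cluster in WT.

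Col27a1 was higher past 2-fold in db/db in 16 of its 18 clusters, and 29 of 4847 genes with 7 or more pairs were higher in 7 or more clusters (0.598%). In clusters 4, 5, 7, 9 and 15, WT lay at 0.169 to 0.416, below the level that the higher value of a pair had to reach. These pairs were counted only because db/db was high. Clusters where both values lay below that level were not counted, so the number of Col27a1 clusters follows partly from that rule. The 2 clusters within 2-fold were cluster 8, at 3.34, 4.42, 4.19 and 4.46, and connecting tubule-like cluster 12, at 2.90, 2.58, 3.02 and 3.24. There all 4 libraries were close. Proximal tubule transcripts were found in all other clusters too, and their part in the Col27a1 differences outside the proximal tubule was not tested. In the db/db library, Col27a1 in thick ascending limb-like cluster 4 stood at 9.57% of its proximal tubule-like mean, beside 8.56% for Slc34a1 and 8.79% for the endocytic receptor gene Lrp2. In type B intercalated cell-like cluster 11 it stood at 28.3%, beside 27.8% and 21.5%. In cluster 8 it stood at 36.8%, beside 7.90% and 10.2%, and in cluster 12 at 26.6%, beside 7.77% and 7.82%. In WT, Col27a1 was above its proximal tubule-like mean in cluster 8 (153%) and cluster 12 (133%). The summed value of 12 proximal tubule markers was 189, 184, 137 and 154 in cluster 0 and 175, 193, 143 and 180 in cluster 1. Both sums were lowest in db/db, and in cluster 1 the double mutant lay above WT in the marker sum and in Col27a1. The part of these marker sums in the Col27a1 values of the proximal tubule-like clusters was not tested. Col27a1 lies on the same chromosome as Lepr, 38.4 Mb away, and whether the region around the db mutation contributed was not tested.

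**Figure D3:**
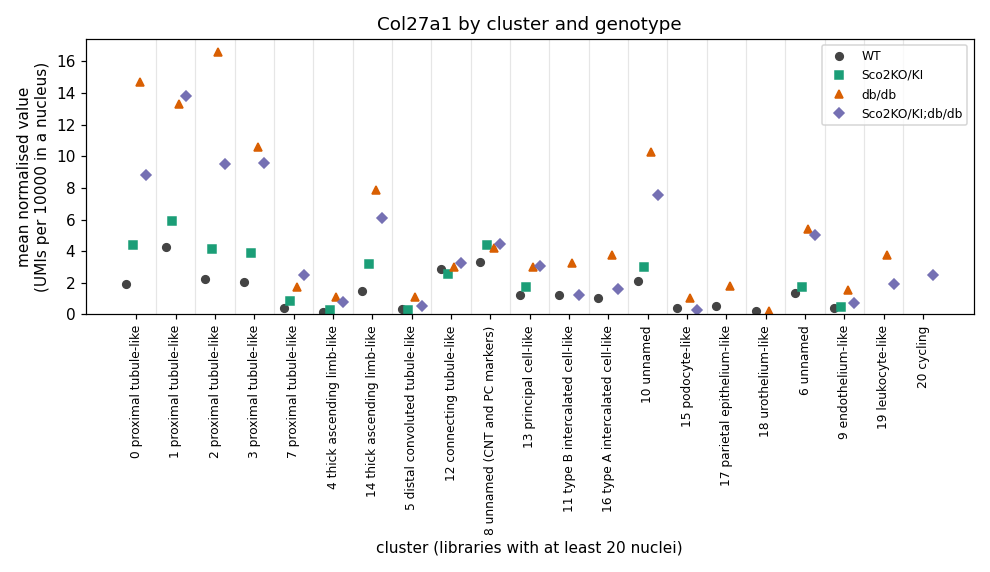
Col27a1 normalised value (UMIs per 10000 in a nucleus, y axis from 0) in each cluster, 1 point per library with at least 20 nuclei; colour and shape give the genotype. The points of db/db and of the double mutant lie above WT in proximal tubule-like clusters 0 to 3 (db/db at 14.7, 13.3, 16.6 and 10.6), while the 4 points lie together in clusters 8 and 12.

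Beside Col27a1, 8 collagen genes held the other 9 higher pairs in db/db. Col13a1, a transmembrane collagen, was at 0.0328, 0.278, 1.34 and 1.03 in the endothelium-like cluster, a log2 ratio of 3.44 for db/db against WT, with about 39 UMIs in db/db and under 1 in WT. Col14a1 in cluster 6 was at 1.07, 2.28, 3.41 and 3.24. Col14a1 in the urothelium-like cluster had 0.0355 (WT) and 0.662 (db/db). Col8a1 in cluster 6 was at 0.640, 0.350, 2.47 and 0.884, so db/db stood alone there. The others were Col24a1 in the type B intercalated cell-like cluster, given above, Col5a2 and Col6a3 in cluster 6, Col18a1 in cluster 14 (0.202 in WT and 0.690 in the db/db library) and Col12a1 in the parietal epithelium-like cluster (0.183 and 0.517, from about 1 and 5 UMIs).

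The lower pairs were led by Col5a2, a chain of the type V collagen that starts fibrils. In distal convoluted tubule-like cluster 5 it was at 1.52, 0.415, 0.0239 and 0.171, a log2 ratio of -3.71 for db/db against WT. In thick ascending limb-like clusters 4 and 14 it was lower as well, with 1.15 (WT) and 0.260 (db/db) in cluster 4 and 0.846 and 0.237 in cluster 14. In cluster 6 it was higher instead, at 0.217 and 0.642. Col19a1, a fibril-associated collagen, was at 0.997, 1.57, 0.0555 and 0.0958 in proximal tubule-like cluster 3, so both lean libraries lay above both with the db/db genotype. Col8a1 in proximal tubule-like cluster 1 had 2.73 (WT) and 0.619 (db/db). Col17a1, a collagen of epithelial anchoring, was at 0.562 in the WT urothelium-like cluster, from about 17 UMIs, and listed at 0 in the 25 nuclei of db/db.

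Sco2KO/KI against WT asks about the Sco2 alleles in lean mice and shares the WT library with the comparison above. Among 113 collagen pairs, 14 were higher past 2-fold (12.4%), against 4.73% of all gene pairs, and 9 were lower (7.96%), against 5.99%. The median log2 ratio was 0.08 for the collagen pairs and -0.02 for all pairs. Of the 14, 7 belonged to Col6a6 and 2 to Col27a1. The other 5 of 95 pairs (5.26%) lie near the background, and all 5 were in cluster 6, where the summed fibroblast markers were 2.89 in WT and 7.58 in Sco2KO/KI; the part of that sum was not tested.

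Col6a6 (chromosome 9, 105687809 to 105828160, minus strand) encodes a chain of type VI collagen, which forms beaded filaments. Its window, chr9:105828036-105828335 on the minus strand, is shown because the gene stood out in 1 library, and capitals mark GGGCGG on either strand.
Col6a6: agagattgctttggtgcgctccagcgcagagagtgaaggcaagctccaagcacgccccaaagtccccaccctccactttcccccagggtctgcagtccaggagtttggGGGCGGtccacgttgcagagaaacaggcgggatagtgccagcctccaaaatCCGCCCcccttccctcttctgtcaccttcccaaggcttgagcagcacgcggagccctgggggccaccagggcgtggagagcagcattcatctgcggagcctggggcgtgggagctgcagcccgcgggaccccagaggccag
In proximal tubule-like cluster 3 its normalised values were 0.160, 3.28, 0.146 and 0.665. Cluster 0 had 0.0401, 2.76, 0.138 and 0.375, and cluster 2 had 0.0176, 1.87, 0.0581 and 0.288. The Sco2KO/KI library was the highest in each of these clusters, the double mutant came second, and WT and db/db were low. About 290, 236 and 122 UMIs stood behind the 3 Sco2KO/KI values and 22, 8 and 3 behind those of WT. Cluster 7 had 0.260, 1.38, 0.0211 and 0.106, and in cluster 1 all 4 values were at or below 0.280.

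In all, Col6a6 was higher past 2-fold in Sco2KO/KI in 7 of its 7 clusters, with log2 ratios of 2.04 to 4.35. Of the 4276 genes with 7 or more pairs, 0.421% reached 7 clusters. In all 7 pairs WT lay at 0.0176 to 0.260, below the floor, so each was counted only because Sco2KO/KI was high. Clusters where both libraries lay below the floor were not counted, so 7 of 7 follows partly from that rule. The other 3 Col6a6 clusters were 6, 10 and 14, where the gene stood at 0.713, 1.87 and 1.06 in Sco2KO/KI. These are 37.3%, 97.8% and 55.3% of its proximal tubule-like mean in that library, beside 55.9%, 80.3% and 77.9% for Slc34a1, and the part of proximal tubule transcripts in those 3 clusters was not tested. Below the floor, thick ascending limb-like cluster 4 stood at 24.5% of that mean, beside 16.3% for Slc34a1, from about 11 UMIs, and distal convoluted tubule-like cluster 5 at 14.2%, beside 16.4%. Principal cell-like nuclei stood at 7.59%, beside 21.6%, and endothelium-like nuclei at 0.628%, beside 28.0%. The Sco2KO/KI library had the fewest nuclei and the highest median of the UMI totals that were read, and the part of depth was not tested. The neighbouring type VI genes Col6a5 and Col6a4, 0.0279 Mb from Col6a6 and 0.0288 Mb further on, stayed low, with highest cluster means of 0.0131 and 0.382.

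The lower pairs in Sco2KO/KI were led by Col8a1 in the endothelium-like cluster. Col8a1 (chromosome 16, 57624258 to 57754737, minus strand) encodes a network-forming collagen known from vessels and the cornea. Its endothelium-like value was 1.84 in WT, from about 23 UMIs, and it was listed at 0 in the 65 nuclei of Sco2KO/KI, while db/db had 1.52 and the double mutant 0.150. Both libraries with the Sco2 alleles were thus low. Col5a2 was likewise low in both in that cluster, at 1.33, 0.453, 1.79 and 0.113, with about 5 and 3 UMIs behind the low values. The summed endothelial markers of this cluster were 78.3, 106, 95.8 and 123, and the summed fibroblast markers were 3.11, 1.37, 2.88 and 2.02. The fibroblast sum was thus higher in the 2 libraries in which Col8a1 and Col5a2 were high, and its part in these values was not tested. Col5a2 was also lower past 2-fold in Sco2KO/KI in cluster 5 (1.52 in WT and 0.415) and cluster 14 (0.846 in WT and 0.366). There db/db was lower still, at 0.0239 and 0.237. In cluster 6 Col5a2 was higher past 2-fold instead, at 0.217 in WT and 0.641 in Sco2KO/KI.

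**Figure D4:**
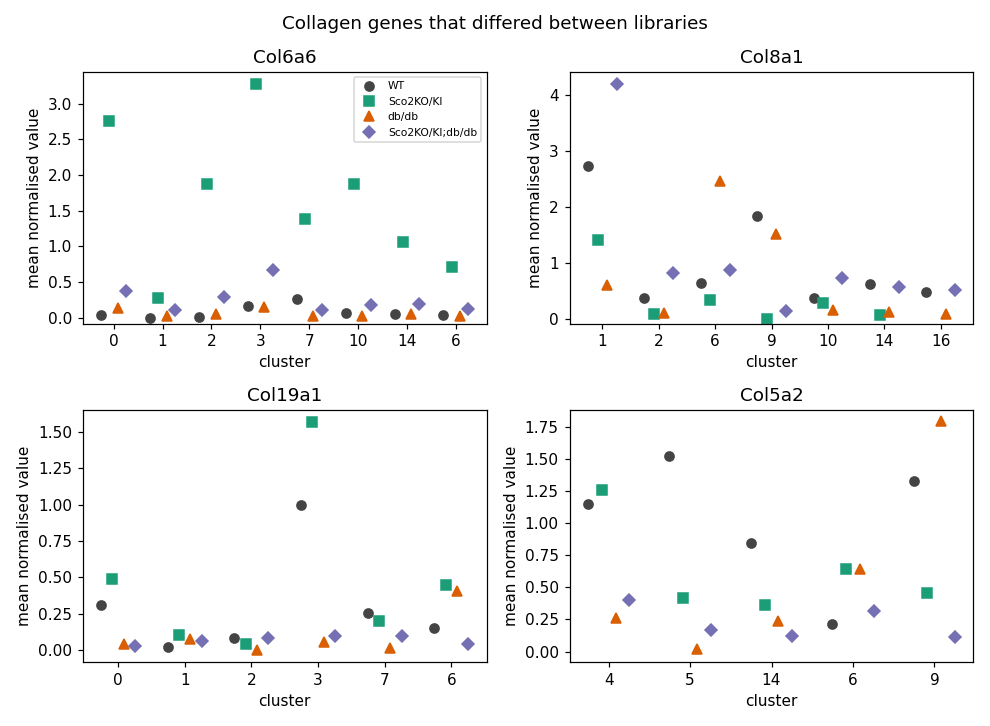
Normalised value of 4 collagen genes in the clusters where they were found, 1 point per library with at least 20 nuclei; the x axis gives the cluster number and colour and shape the genotype. Col6a6 is highest in Sco2KO/KI (3.28 in cluster 3), Col8a1 is highest in the double mutant in cluster 1 (4.21), Col19a1 is low in both libraries with the db/db genotype in cluster 3 (0.0555 and 0.0958), and Col5a2 is lowest in the double mutant in endothelium-like cluster 9 (0.113).

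The double mutant was compared with db/db, which addresses the Sco2 alleles in diabetic mice. Among 144 collagen pairs, 11 were higher past 2-fold (7.64%), against 7.12% of all gene pairs, and 17 were lower (11.8%), against 5.98%. The median log2 ratio was -0.10, against -0.06 over all pairs. The higher count lies at the background. Of the 17 lower pairs, 4 belonged to Col27a1, in podocyte-like, distal convoluted tubule-like and both intercalated cell-like clusters, and 5 lay in the leukocyte-like cluster, which had 20 nuclei (db/db) and 53 (double mutant). The lowest log2 ratios were those of Col22a1 (-3.25) and Col6a4 (-3.11) in the leukocyte-like cluster and Col5a2 (-3.15) in the endothelium-like cluster.

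Col8a1 held 5 of the 11 higher pairs, while the highest log2 ratios were those of Col4a4 (3.64) and Col25a1 (2.70), in 1 cluster each. In proximal tubule-like cluster 1 Col8a1 was at 2.73, 1.42, 0.619 and 4.21, from about 358, 95, 85 and 1240 UMIs. The double mutant was highest and db/db lowest. It was also higher past 2-fold in clusters 2, 10, 14 and 16, and lower past 2-fold in clusters 6 and 9. In the 4 higher clusters the double mutant had 0.832, 0.731, 0.576 and 0.513 and db/db 0.100 to 0.164. These pairs thus passed the floor of 0.5 only through the double mutant. Clusters 10 and 14 also held proximal tubule transcripts, with Slc34a1 in the double mutant at 73.8% and 64.7% of its proximal tubule-like mean. The part of these transcripts in the Col8a1 values was not tested. Col6a6 in cluster 3 was at 0.665 in the double mutant and 0.146 in db/db. Col18a1 in the podocyte-like cluster was at 1.91, 2.09, 2.06 and 4.27, so the double mutant stood apart from 3 close values. Col23a1, a transmembrane collagen, was at 0.973, 1.11, 1.30 and 0.250 in proximal tubule-like cluster 7, where the double mutant had 30 nuclei and about 3 UMIs of the gene.

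The double mutant against Sco2KO/KI shares its first library with the comparison just given and its second with the comparison of lean mice. Among 114 collagen pairs, 18 were higher past 2-fold (15.8%), against 6.85% of all gene pairs, and 15 were lower (13.2%), against 6.77%. The median log2 ratio was 0.07, against -0.01 over all pairs. Col27a1 made up 7 of the 18 higher pairs and Col6a6 made up 7 of the 15 lower ones, and of 4290 genes with 7 or more pairs, 0.769% were higher and 1.12% lower in 7 or more clusters. For Col6a6 the double mutant reached the floor in cluster 3 only, so its other pairs were counted only because Sco2KO/KI was high. They use the same Sco2KO/KI values as the comparison of lean mice, so the number of Col6a6 clusters follows partly from that rule. Without these 2 genes, 11 of 93 pairs were higher (11.8%) and 8 were lower (8.60%). Col27a1 in cluster 1 stood at 5.92 in Sco2KO/KI and 13.8 in the double mutant. Col8a1 was higher past 2-fold in 5 clusters, with log2 ratios of 1.10 to 2.22. In these, Sco2KO/KI reached the floor in cluster 1 only, so the other Col8a1 pairs were counted only because the double mutant was high. Col19a1 in cluster 3 was lower, at 1.57 and 0.0958.

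Stromal collagens in cluster 6 were compared with the markers of that cluster, because it holds several cell types and an average cannot tell a different mix of nuclei from a different level per nucleus. The 7 members highest there summed to 2.50, 4.50, 3.59 and 4.00. WT was the lowest, and the 3 mutant libraries ranged from 3.59 to 4.50. Summed over 7 fibroblast markers, cluster 6 stood at 2.89, 7.58, 7.22 and 9.96, and over 10 pericyte, mesangial and smooth muscle markers at 3.50, 6.18, 8.50 and 5.96. No marker of these 2 lists was at 0 in all 4 libraries. WT was again the lowest in both. The sum of 6 parietal epithelium markers, at 4.13, 17.3, 14 and 13.1, was also lowest in WT, whereas the proximal tubule sum, at 109, 89.2, 56.0 and 83.6, was highest in WT. The endothelial sum was 22.1, 21.9, 19.1 and 27.6, without either order. The part of these sums in the collagen values was not tested. Per unit of fibroblast marker sum, the 7 collagens stood at 0.865, 0.594, 0.498 and 0.401, with WT the highest. Per unit of pericyte, mesangial and smooth muscle sum they stood at 0.715, 0.728, 0.423 and 0.670, with db/db the lowest and WT not the highest.

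The genes of the list did not all follow the sum. Col3a1, the main chain of type III collagen, was at 0.465, 1.58, 0.663 and 0.430, and Col5a1 at 0.304, 0.812, 0.454 and 0.278, with Sco2KO/KI the highest in both. Col6a1 was at 0.207, 0.526, 0.440 and 1.08 and Col6a3 at 0.405, 0.473, 0.941 and 1.06, with the double mutant the highest. Col1a1 stayed between 0.334 and 0.575. Col15a1, a collagen of the basement membrane zone of vessels and muscle, was at 0.704, 0.7, 0.380 and 0.296, so both libraries with the db/db genotype were low.

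**Figure D5:**
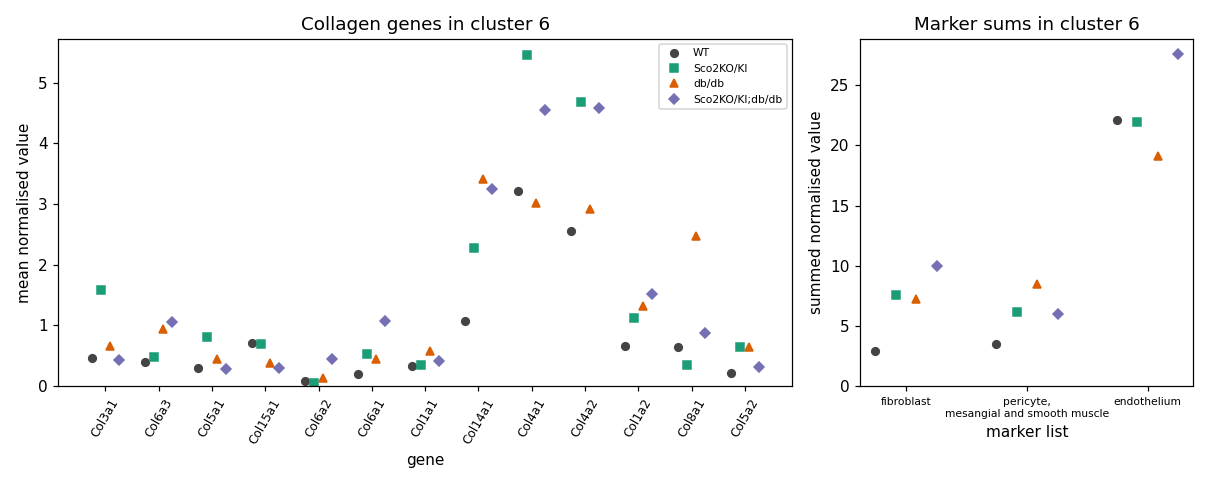
Left, normalised value of 13 collagen genes in cluster 6, 1 point per library. Right, summed normalised value of the markers of 3 cell types in the same cluster; WT is lowest for the fibroblast (2.89) and pericyte, mesangial and smooth muscle lists (3.50), and also for Col14a1 (1.07) and Col6a1 (0.207).

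The partners of collagen were counted in the same way. In db/db against WT, 4.71% of all gene pairs were higher and 7.79% lower. Chain modification genes had 4 pairs higher past 2-fold and 19 lower of 114 (3.51% and 16.7%), and collagen degradation genes had 2 and 9 of 47 (4.26% and 19.1%), with median log2 ratios of -0.26 and -0.56, against 0.00 over all pairs. Procollagen processing genes had 4 pairs each way of 24 (16.7% each), and collagen receptors 1 each way of 62 (1.61% each). Basement membrane partners had 11 higher and 11 lower of 158 (6.96% each), and the TGF-beta pathway, which drives matrix genes, had 5 higher and 7 lower of 140 (3.57% and 5.00%), all near the shares over all pairs. In the double mutant against db/db the chain modification list had 12 higher and 7 lower of 102 (11.8% and 6.86%), against 7.12% and 5.98% of all pairs, with a median of 0.30, against -0.06. Its lower share lies near the background. Procollagen processing genes had 5 higher and 1 lower of 25 (20.0% and 4.00%), with a median of 0.55. Collagen degradation genes had 6 each way of 37 (16.2% each), with a median of -0.37. Collagen receptors, basement membrane partners and the TGF-beta pathway had 0%, 7.75% and 9.16% of pairs higher and 1.72%, 7.75% and 4.58% lower. The largest ratio of the TGF-beta list in db/db against WT was that of Ctgf, a matricellular growth factor gene and a known target of the pathway, in the podocyte-like cluster, at 1.59, 2.45, 10.0 and 8.29. Both libraries with the db/db genotype were high. In lean mice the lowest partner ratio was that of the laminin gene Lama1 in thick ascending limb-like cluster 4, at 1.08 in WT and 0.0680 in Sco2KO/KI. Ltbp1, which binds latent TGF-beta, had endothelium-like values of 4.68, 1.55, 4.80 and 7.94.

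The genes whose log2 values were most like those of single collagen genes over the 72 columns were named for the highest member of 7 role groups. For Col27a1 they were Prkag2, Mapk4 and Galnt3, with r = 0.77, 0.76 and 0.75. For Col6a6 they were Cndp1, Angptl7 and Smarca2 (0.74, 0.74 and 0.73), and for Col4a3 they were Arhgef16, Top1mt and Vegfa (0.71, 0.68 and 0.68). For Col8a1 the nearest were Dgkb, Slc7a2 and Gpat3 (0.77, 0.73 and 0.71). Col18a1 was nearest to Bmpr1b (0.81), Col23a1 to Slc39a8 (0.68) and Col26a1 to Kcnh5 (0.94). These columns share libraries and depth, and the likeness is a description.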

How the data were processed

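Single-nucleus RNA of kidney cortex was measured in 4 genotypes, with 1 library each. The values deposited by the authors are a normalised signal, read from the values as cluster averages of UMIs after scaling nuclei to 10000, since each of the 83 columns totals 10000. Cell Ranger, Seurat and mm10 are named in the submitters' processing notes. Versions, filters on nuclei, doublet removal and how clusters were cut were not given in the sources used here. Averages allow no doublet calls. The table held 21481 entries. Its 25 entries with calendar dates for names, at most 0.307% of a column, were left out.

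Nuclei and UMI totals were recovered from the lowest values, as 1 UMI of a gene in a single nucleus yields 10000 over the product of both. UMI totals were read as distinct values shared by at least 3 genes, so the share of nuclei covered differed by library. Cluster 0 had 320 totals for 683 nuclei in WT and 172 for 183 in Sco2KO/KI. The totals were not checked on simulated data. Tested on such data, the number of nuclei was exact for 24 of 24 clusters with 10 or more nuclei and for 26 of 27 in all. It was found for 80 columns, and 72 held at least 20 nuclei. UMIs behind a value are given as the value times the nuclei times the median UMI total, an approximation, and intervals were not computed. Cluster names rest on markers at 2 or more times the mean of the other clusters, which may differ from the study's names. Immunoglobulin genes Iglc2 and Ighm led proximal tubule-like cluster 0.

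Ratios are log2 differences of values plus 0.1, a scale that understates changes of low genes. Pairs needed 20 nuclei in both libraries and a higher value of 0.5. There was no test. Members described with all 4 values reached a mean of 1, or were among the 5 highest or 5 lowest pairs of a comparison, or passed 2-fold in 3 or more clusters in 1 direction. Other collagen values, such as those of cluster 6, Col4a1 and Col4a2 in podocyte-like nuclei and the partner genes shown with all 4 values, were chosen after they were seen. The members and lists were chosen with earlier results of these data known. Positions are from GENCODE vM21 (42 of 42 members matched) and windows from RefSeq. Python 3.11.15, pandas 2.3.3, numpy 2.4.6, scipy 1.17.1 and matplotlib 3.10.9 were used. The nearest genes of the fibril-associated group are not reported here. Alternatives covered the pseudocount, the floor, the number of nuclei and the scaling.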

Additional observations from a re-analysis of the deposited data

Results flagged for a closer look

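In 7 cases a collagen gene moved one way with the Sco2 alleles in lean mice and the other way in db/db mice, by at least 0.5 on the log2 scale each time. With 1 library per genotype these differences were not tested. The share of all gene pairs that meet this rule was not computed, so the count is a list and not a result about collagen genes. Some cases rest on low values, such as Col8a1 at 0.0684 in the 21 Sco2KO/KI nuclei of cluster 14. In cluster 6, Col3a1 had log2 ratios of 1.57 for Sco2KO/KI against WT and -0.53 for the double mutant against db/db, a difference of -2.10, and Col5a2 had 1.22 and -0.84, a difference of -2.07. Col27a1 had 1.13 and -0.73 in proximal tubule-like cluster 0, a difference of -1.86, and 0.84 and -0.80 in cluster 2, a difference of -1.64. Col26a1 in cluster 8 had -0.86 and 0.66, a difference of 1.52. Col8a1 had -0.90 and 2.58 in proximal tubule-like cluster 1, a difference of 3.48, and -2.11 and 1.57 in thick ascending limb-like cluster 14, a difference of 3.69.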

How the results depend on the processing

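No paired analysis was possible because each genotype had 1 library. Counts below are collagen pairs higher, then lower past 2-fold, for Sco2KO/KI against WT (14 and 9 as reported), db/db against WT (25 and 10), the double mutant against db/db (11 and 17) and the double mutant against Sco2KO/KI (18 and 15). With a pseudocount of 0.5 the counts that moved by more than 1.5 times were 8 and 3, then the lower count of 6, then 4 and 9, then 9 and 9. With no floor they were 34 and 23, 49 and 37, 42 and 27, and 45 and 36, of 457, 634, 605 and 437 pairs, and the median log2 ratios became -0.10, 0.05 and 0.02 for the first 3 comparisons. With a floor of 1, the lower counts of the first and second comparisons were 5 and 5, the third had 4 and 9, and the last had 11 higher. With at least 50 nuclei the third had 7 and 10 and the last 11 higher. With every cluster present in both libraries they were 27 and 25, then 16 lower, 19 higher, and 39 and 26. The pseudocount of 0.02 and rescaling without mitochondrially encoded genes moved no count that far. Chosen after the data were seen, leaving out clusters 6, 10 and 14 gave 5 higher and a median of -0.04 for the first comparison and 8 lower for the last. Leaving out Col27a1 and Col6a6, also chosen then, gave 5 higher with a median of -0.07, 9 higher with a median of 0.06, and 11 and 8 for the last. The podocyte-like summed value was 32.9 without its highest member. In all, 42 of 110 alternative values moved. Depth limits the clusters with few nuclei most, since a value near 0.5 in the leukocyte-like cluster can be 1 UMI.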
